A study of Solanum lycopersicum with 3 samples.

Results

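Woolly, Hair, CycB2 and MYC1 are 4 tomato (Solanum lycopersicum) regulators of leaf trichomes, the hairs that grow out of single epidermal cells. They were taken by locus identifier: Solyc02g080260 for Woolly, Solyc10g078970 for Hair, Solyc10g083140 for CycB2 and Solyc08g005050 for MYC1. All 4 identifiers were present among the 21717 loci of the deposited table. By their identifiers, Woolly lies on chromosome 2, MYC1 on chromosome 8, and Hair and CycB2 on chromosome 10 with 232 other listed loci between them.

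The study measured RNA in 1 group of 3 libraries, all from seedlings of the mutant genotype slmp, of the line slmp-1, with a mock treatment that was a single water spray 1 h before harvest. SlMP is the tomato counterpart of MONOPTEROS, an auxin response factor. Each library pooled 15 young primordia of leaf 5 at stage P5, from plants kept on days of 18 h light and nights of 6 h. The sources used here do not give the age of the plants, the number of plants in a pool or the nature of the slmp lesion. The labels describe the libraries as separate samples and do not say that they came from separate sowings, so the spread between them may in part be technical. A wild-type or auxin-treated group is not analysed here, so no value below is a change caused by the mutation.

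Tomato leaves carry several kinds of multicellular trichome, some of them glandular and filled with terpenes and acylsugars. Woolly is a homeodomain-leucine zipper protein of class IV (HD-ZIP IV), a family active in the epidermis. Hair is a C2H2 zinc-finger protein, and both Woolly and Hair are known to promote the long multicellular trichomes. CycB2 is a B-type cyclin, and its protein binds Woolly. MYC1 is a basic helix-loop-helix factor that tomato needs for normal type VI glandular trichomes and their terpenes.

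The identities rest on the locus identifiers. The RefSeq gene table of the assembly SLM_r2.1 paired none of the table's identifiers with a symbol. It holds 1 gene with the symbol MYC1, on chromosome 8 like the MYC1 locus here. Its 1 gene with the symbol CycB2 is on chromosome 2, whereas the CycB2 locus described here is on chromosome 10, so that entry was not used. No gene there has the symbol Woolly, Wo or Hair.

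A QuantSeq kit was used, so that sequencing covers the 3′ end of each polyadenylated transcript, with about 1 fragment per transcript, and levels of different genes were compared without division by gene length. Values are the authors' scaled read counts, called scaled values here. In each library all values were whole multiples of 1 step (0.948, 1.04 and 1.08 in replicates 1, 2 and 3), and a step is read here as 1 sequenced read. The loci summed to between 2499843 and 2746410 reads per library. Intervals below are exact 95% Poisson or Clopper-Pearson intervals of these reads and cover counting error only, since the reads carry no stated molecular identifiers and may be copies of one molecule.

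CycB2 and Woolly were among the more abundant transcripts of the primordium, MYC1 was moderately expressed, and Hair was near the lower limit of measurement. Detection was defined as a scaled value of at least 10 in each library. CycB2, Woolly and MYC1 met it, or 3 of the 4 genes, where 68.7% of all loci did, so a count of 3 detected genes of 4 is close to what the whole table gives. All 4 were above 0 in every library, as were 91.1% of all loci. Throughout, all loci means the 21717 in the table, which lacks some of the loci recorded below from general knowledge. Whether loci were left out of the table for a low level was not tested. Together the 4 genes summed to 515.6, 530.7 and 508.6 scaled units in replicates 1, 2 and 3. Of that sum CycB2 made up 50.1% ± 2.08 (SD, n = 3), Woolly 35.6% ± 2.56, MYC1 13.6% ± 4.47 and Hair 0.731% ± 0.322.

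**Figure D1:**
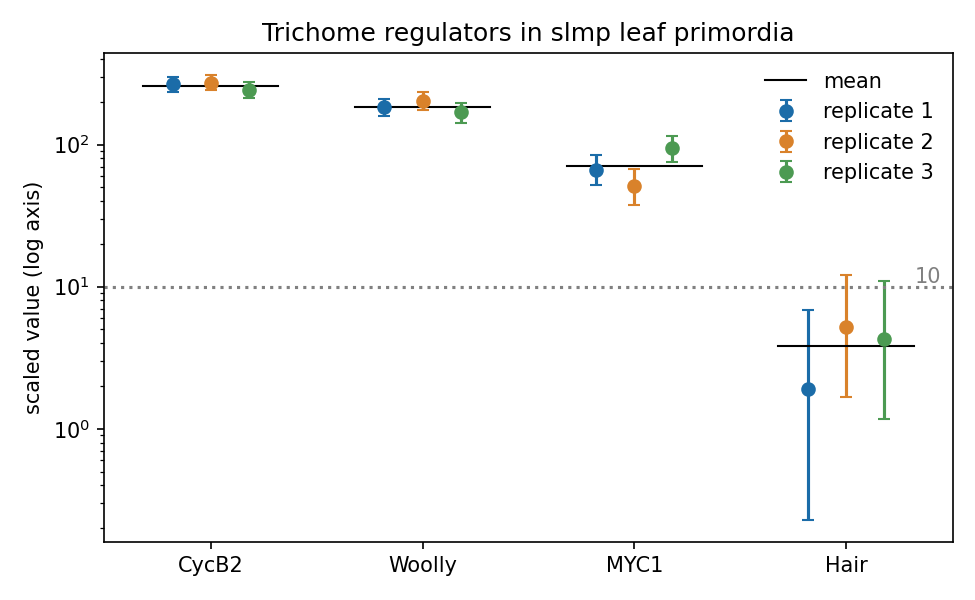
Scaled value (log axis) of CycB2, Woolly, MYC1 and Hair in each of the 3 slmp libraries; points are libraries, bars are exact 95% Poisson intervals of the reads, black lines are means, and the dotted line marks the detection threshold of 10. CycB2, Woolly and MYC1 lie above the line in every library, and Hair lies below it in every library.

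Woolly, the homeodomain factor, had scaled values of 182.9, 202.5 and 168.1 in replicates 1, 2 and 3. Its mean was 184.5 ± 17.3 (SD, n = 3), with the highest library 1.20 times the lowest. The reads behind these values numbered 193, 195 and 156 in replicates 1, 2 and 3, and their counting intervals overlapped in all libraries, from 158.0 to 210.6, 175.1 to 233.0 and 142.7 to 196.6 scaled units. Counting error alone would give an SD of about 13.7 at this depth, so the libraries spread little more than that. The mean of Woolly was higher than that of 87.8% of all loci, at rank 2660 of 21717, and 5.53 times the median locus (33.3).

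Hair, the zinc-finger factor, had scaled values of only 1.90, 5.19 and 4.31 in replicates 1, 2 and 3, with a mean of 3.80 ± 1.71 (SD, n = 3). These values are 2, 5 and 4 reads in replicates 1, 2 and 3, or 11 in all, and 2 reads is the smallest value above 0 that the table holds. The intervals ran from 0.23 to 6.85, from 1.69 to 12.1 and from 1.17 to 11.0 scaled units in replicates 1, 2 and 3. No order of the libraries can therefore be read from Hair. A value of 10 or more was not reached in any library, which was also true of 18.2% of all loci. The mean was below that of most of the table, with 9.93% of all loci at or under it. In pooled primordia, a transcript made by few cells cannot be told apart from one made at a low level per cell. Reads that the counting program assigned to no feature were 22.6%, 22.7% and 21.2% of the scaled total in replicates 1, 2 and 3. Reads set aside for low alignment quality were a further 25.6%, 22.9% and 21.4% in replicates 1, 2 and 3. Whether any reads of these 2 kinds came from Hair, or from the other 3 genes, was not tested.

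CycB2, the cyclin, was the highest of the 4, with scaled values of 264.4, 272.1 and 242.4 in replicates 1, 2 and 3. Its mean was 259.7 ± 15.4 (SD, n = 3), from 279, 262 and 225 reads in replicates 1, 2 and 3. The libraries differed by at most 1.12 times, and the SD was no larger than the 16.3 that counting error alone would give. CycB2 stood above 91.8% of all loci, at rank 1791, and at 7.79 times the median locus. The spread of CycB2 was narrow for its level: the SD of its log2(value + 1) was 0.09, and 11.4% of the 500 loci nearest to it in mean had a smaller one. For Woolly the SD was 0.13, with 22.0% of its own 500 nearest loci below it. The SD was 0.029 for CycB2 without replicate 3 and 0.117 without replicate 1. For Woolly it was 0.086 without replicate 2 and 0.189 without replicate 1.

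MYC1, the helix-loop-helix factor, varied most among the 3 detected genes. Its scaled values were 66.3, 50.9 and 93.7 in replicates 1, 2 and 3, with a mean of 70.3 ± 21.7 (SD, n = 3). Replicate 3 was 1.84 times replicate 2. Their counting intervals did not overlap: 75.1 to 115.6 scaled units in replicate 3 (87 reads) and 37.6 to 67.3 in replicate 2 (49 reads). Counting error alone would give an SD of about 8.50, and the measured SD was larger than that. The SD of its log2(value + 1) was 0.44, against a median of 0.26 in the 500 loci nearest in mean, of which 81.0% had a smaller SD. Without replicate 3 the SD of MYC1 was 0.27, and its mean was 58.6. The mean of MYC1 lay above 69.6% of all loci, at 2.11 times the median locus.

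**Figure D2:**
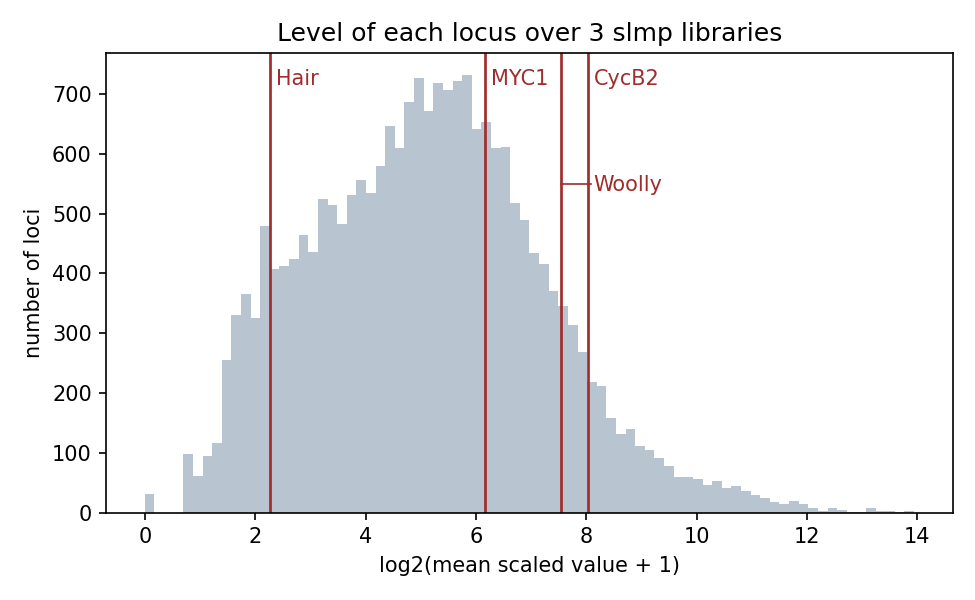
Number of loci (vertical axis) by log2 of the mean scaled value plus 1 over the 3 slmp libraries (horizontal axis), for all 21717 loci; vertical lines mark the 4 trichome regulators. Hair sits in the low tail with 9.93% of loci at or under it, MYC1 lies just above the peak, and Woolly and CycB2 lie on the upper flank.

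The order of the levels was CycB2, Woolly, MYC1 and Hair, and it was the same in each library. CycB2 and Woolly were neighbours in this order and kept a nearly constant ratio. Woolly reached 0.692, 0.744 and 0.693 times CycB2 in replicates 1, 2 and 3. The exact 95% intervals of these ratios were wider than their spread, at 0.573 to 0.834, 0.615 to 0.899 and 0.562 to 0.854. On the log2(value + 1) scale Woolly minus CycB2 was -0.49 ± 0.06 (SD, n = 3). Over the summed reads the ratio was 0.710, with an exact 95% interval of 0.635 to 0.794. The ratio of these 2 genes varied less between libraries than any other ratio among the 4. Every other pair includes MYC1 (206 reads in all) or Hair (11), against 544 for Woolly and 766 for CycB2. How far the number of reads accounts for this was not tested.

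Woolly exceeded MYC1 by 2.76, 3.98 and 1.79 times in replicates 1, 2 and 3. The mean difference Woolly minus MYC1 was 1.42 ± 0.57 on the log2 scale (SD, n = 3). CycB2 exceeded MYC1 by 3.99, 5.35 and 2.59 times in the same libraries, a log2 difference of 1.91 ± 0.52. Both ratios were highest in replicate 2, where MYC1 was lowest, and lowest in replicate 3, where MYC1 was highest.

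Hair stood apart from its next neighbour MYC1. MYC1 had 206 reads in all against the 11 of Hair, so that Hair minus MYC1 was -3.92 ± 0.76 on the log2(value + 1) scale (SD, n = 3), and the ratio of Hair to MYC1 over the summed reads was 0.0534 (exact 95% interval 0.0262 to 0.0976). Hair is known to act together with Woolly, and the 2 transcripts differed widely in level. Woolly had 96.5 times the reads of Hair in replicate 1, with an exact 95% interval of 26.4 to 802.5, and 39.0 times in both replicate 2 (16.4 to 121.5) and replicate 3 (14.9 to 144.9). Summed over libraries, Woolly had 49.5 times the reads of Hair (27.4 to 99.7). Hair minus CycB2 was -5.83 ± 0.59 on the log2(value + 1) scale (SD, n = 3), and the ratio of Hair to CycB2 over the summed reads was 0.0144 (0.00714 to 0.0258). The log2 differences of Hair depend on the pseudocount. With a pseudocount of 5 and with none, Hair minus MYC1 was -3.08 and -4.29, Hair minus CycB2 was -4.93 and -6.22, and Woolly minus Hair was 4.44 and 5.72.

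All 6 pairs were compared within libraries by an exact 2-sided sign-flip permutation test of the log2 differences. Each pair had the same sign in 3 of 3 libraries and gave a permutation p of 0.25 (Benjamini-Hochberg adjusted p = 0.25 over the 6 pairs). That is the smallest p that 3 libraries allow, so this design cannot pass a threshold of 0.05. In reads, the exact 95% interval of the ratio excluded 1 in all 18 combinations of a pair and a library, without adjustment for their number. The mean gap between each pair of neighbours in the order was wider than the SD of that gap between libraries.

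**Figure D3:**
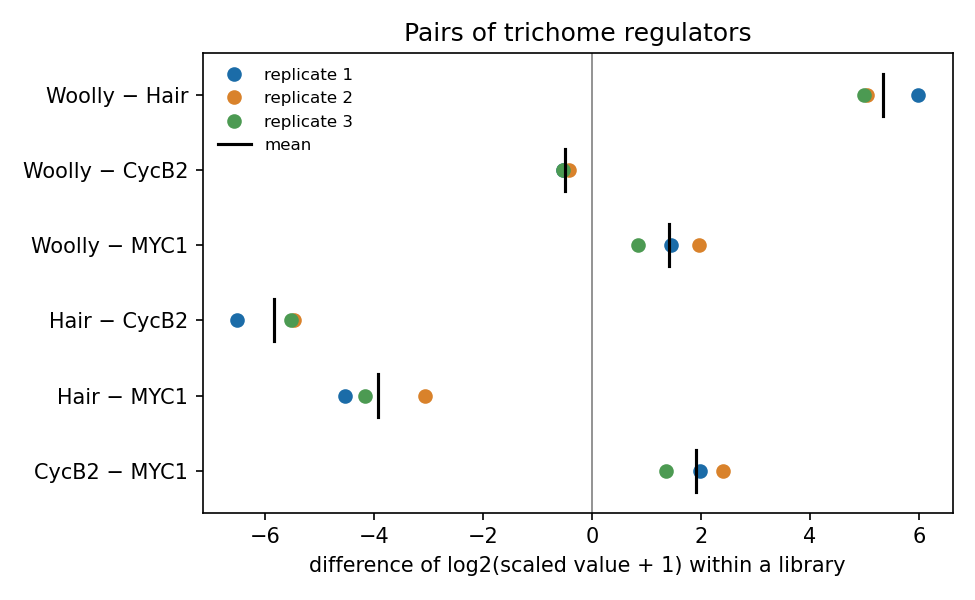
Difference of log2(scaled value + 1) within each library for the 6 pairs of trichome regulators, first gene minus second; points are the 3 slmp libraries and black bars the means. The 3 points of each pair lie on one side of 0, closest together for Woolly minus CycB2.

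The detected genes fell into 2 patterns across the libraries. Woolly and CycB2 were both highest in replicate 2, intermediate in replicate 1 and lowest in replicate 3, an order shared by 23.3% of loci averaging at least 20 scaled units. MYC1 had the opposite order, highest in replicate 3 and lowest in replicate 2, shared by 20.8% of those loci. The distance between 2 genes was taken as the Euclidean distance of their log2(value + 1) after each gene's own mean was subtracted. It was 0.08 between Woolly and CycB2, 0.80 between Woolly and MYC1, and 0.74 between CycB2 and MYC1. The distance includes the size of each gene's spread, an SD of 0.13 for Woolly, 0.09 for CycB2 and 0.44 for MYC1. Genes of small spread therefore lie near each other, and far from MYC1, in part by construction. For Woolly and CycB2 the intervals of the libraries overlapped, so their shared order is within counting error.

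Many other loci lay within a like distance of Woolly and of CycB2. Of the loci averaging at least 20 scaled units, 671 lay within 0.1 of Woolly (4.94%), 705 within 0.1 of CycB2 (5.19%) and 119 within 0.1 of MYC1 (0.876%). The nearest locus to Woolly was Solyc10g050540, at a distance of 0.00102, with scaled values of 93.8, 103.9 and 86.2 in replicates 1, 2 and 3. The nearest to CycB2 was Solyc11g008210 (distance 0.00515) and to MYC1 Solyc02g032800 (0.0121). For Hair, with 2, 5 and 4 reads, a nearest locus would match counting noise and is not given. The files give no names for these loci. With 3 libraries of 1 group, likeness of this kind describes only how the replicates varied.

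The loci listed next to each gene were examined, because 3′ end reads of adjacent or overlapping genes can be counted for the wrong one. Whether the counting used strand is not stated in any source used here. Hair lies between Solyc10g078960, one of the more abundant loci with 3595 ± 178.2 scaled units (SD, n = 3), and Solyc10g078980, which was as low as Hair itself at 2.72 ± 0.588. After Woolly in identifier order, Solyc02g080265 had 74.9, 72.7 and 66.8 scaled units in replicates 1, 2 and 3, and the locus before Woolly averaged 29.2 ± 8.71 (SD, n = 3). CycB2 follows a locus with a mean of 454.6 ± 25.6 and lies before Solyc10g083150, whose values of 219.9, 138.1 and 310.3 in replicates 1, 2 and 3 ranged far more widely than those of CycB2. The neighbours of MYC1 had means of 55.2 ± 12.1 and 47.5 ± 5.14 (SD, n = 3). At each of the 8 neighbours, reads differed from those of its trichome regulator by at least 10.2% in every library. The smallest gap in percent was 49 reads of MYC1 against 54 of Solyc08g005030 in replicate 2, which is within counting error. Solyc10g078980 had 3, 2 and 3 reads in replicates 1, 2 and 3, against 2, 5 and 4 of Hair. Those gaps are also within counting error, though large in percent. Unequal totals cannot show whether some reads were counted for the wrong gene, and that was not tested.

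Other loci were recorded from general knowledge of tomato gene numbering as parts of the same biology, with no source here to check their names, so they are given as groups. Of 12 loci recorded as further trichome regulators, 9 were in the table. Detection in every library was met by 6 of the 9 (66.7%), beside the 68.7% of all loci. Their median mean was 54.5 scaled units, against 33.3 over all loci, and they ranged from 4.79 to 139.6. By mean, Woolly and CycB2 were above all 9, MYC1 was below 3 of them, and Hair was below all 9. The lowest of the 9 had 2.84, 8.31 and 3.23 scaled units in replicates 1, 2 and 3. Hair, at 4.31, was above it in replicate 3, so the order of these 2 low loci is not measurable.

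All 8 loci recorded as HD-ZIP IV genes other than Woolly were in the table and were detected in every library, beside 68.7% of all loci. Their means ran from 35.9 to 517.0 scaled units, with a median of 97.6. Woolly, at 184.5, was lower than 2 of them and higher than the other 6. The highest of these loci had scaled values of 485.3, 633.5 and 432.1 in replicates 1, 2 and 3, above Woolly in each library.

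Loci recorded for glandular-trichome metabolism (terpene, acylsugar and methylketone synthesis) had a lower median level. Of 15 recorded, 12 were in the table and 8 were detected in every library, or 66.7% of those listed, beside 68.7% of all loci. Their median was 18.7 scaled units, below the table's median of 33.3, and the highest mean was 101.3 ± 15.6 (SD, n = 3). MYC1 was above 10 of the 12.

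**Figure D4:**
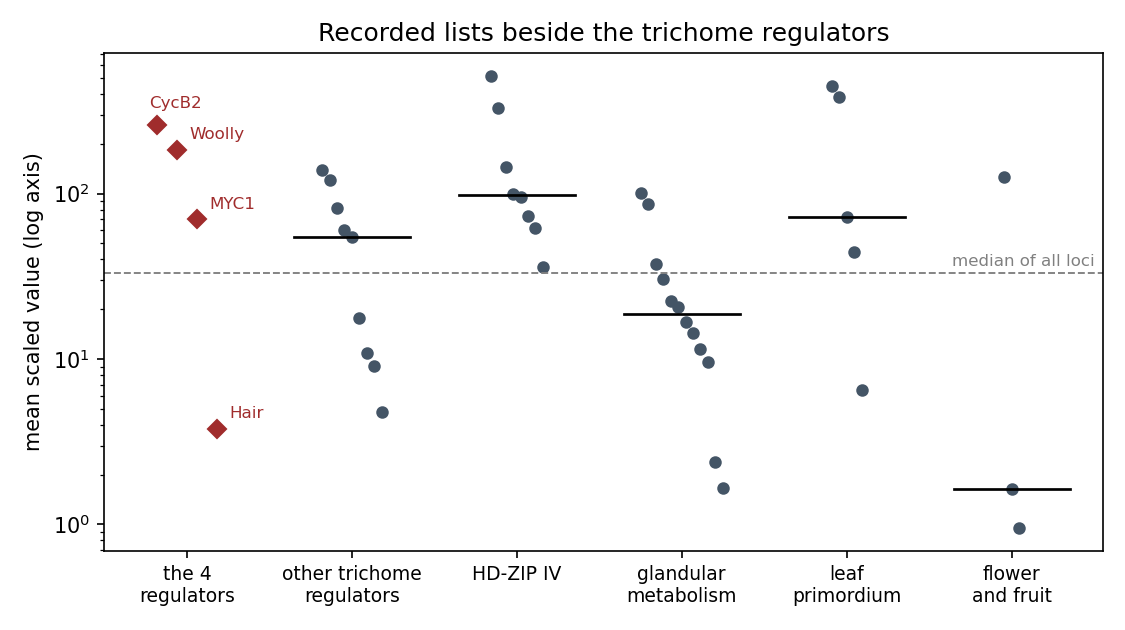
Mean scaled value (log axis) over the 3 slmp libraries for the 4 trichome regulators (diamonds) and for the loci of 5 recorded lists (circles, 1 per locus in the table); black bars are list medians and the dashed line is the median of all loci, 33.3. By mean, Hair lies under every locus of the lists of other trichome regulators and HD-ZIP IV genes. Its order with the lowest of the other trichome regulators rests on few reads. The glandular metabolism loci have a median of 18.7.

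The labelled tissue was checked with a further pair of recorded lists. Of 5 listed loci of leaf primordium regulators, 4 were detected in every library, beside 68.7% of all loci, so this count says little about the tissue. The means of the 5 ran from 6.47 to 448.2 ± 85.0 scaled units (SD, n = 3), with a median of 71.8. The lowest of the 5 was below 10 in every library. Of 7 loci recorded for flower organs and ripening fruit, 3 were in the table. Of those, 2 had means of 1.64 and 0.948 and were listed at 0 in at least 1 library, and the third had 109.0, 92.4 and 178.9 scaled units in replicates 1, 2 and 3. Whether that locus bears on the levels of the trichome regulators was not tested.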

How the data were processed

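RNA was measured in 3 libraries of the genotype slmp. The submitters' processing notes name Bowtie2, HTSeq and DESeq2 without versions. The genome build and annotation were not given in the sources used here. Each deposited signal value is taken to be the authors' read count per locus divided by 1 factor per library, judged from the values. All were whole multiples of 1 step within 0.001 of a step, and no value of 1 step occurred, so a listed 0 may be 1 read. For that reason no count model was fitted. The 3 summary rows of the counting program, 45.3% to 50.6% of the scaled total, were left out.

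Spread was the SD of log2(value + 1). The genes named are the 4 regulators, the nearest locus by centred log2 values (not printed for Hair, whose reads are too few) and listed neighbours. The 4 regulators and the lists were chosen with earlier results of these data known. Protein and promoter sequences are not used here. Functions were tested on simulated counts. Software was SciPy 1.17.1, pandas 2.3.3, numpy 2.4.6 and matplotlib 3.10.9 under Python 3.11.15.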

Additional observations from a re-analysis of the deposited data

How the results depend on the processing

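Of 105 combinations of a result and another setting, 98 stayed within the spread of the libraries, within 1.5 times of a count or spread, or kept their sign, and none reversed. The 20 alternatives for the levels of the 4 genes all stayed within 1 SD, a limit that leaving out 1 of 3 libraries cannot break. The 36 for the pair differences all kept their sign, though those with Hair changed in size with the pseudocount. No sign could have changed, since each pair had the same sign in every library and a pseudocount is added to both genes. The kept signs therefore say nothing about how robust the order is. The pair differences without a pseudocount were added after seeing the data. The spread of Hair was 0.30 with a pseudocount of 5, which shrinks differences at low values by construction. When each replicate was left out, the spread ranged from 0.086 to 0.189 for Woolly, from 0.16 to 0.78 for Hair, from 0.029 to 0.117 for CycB2 and from 0.27 to 0.61 for MYC1. MYC1 had its lowest spread without replicate 3 and Hair without replicate 1. The detected glandular metabolism loci numbered 4 at a threshold of 20, against 8 at 10. The median of the flower and fruit loci was 126.8 over loci above 0 in every library, which leaves 1 locus. No paired analysis was possible because there is only 1 group and so no pairing between groups; the gene pairs were compared within libraries. With 3 reads worth 2.84 to 3.23 scaled units, depending on the library, differences of Hair between libraries are not measurable.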
